A study of Mus musculus with 10 samples.

Results

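The dependence of the Mta2 knockout effect on the stage of B cell development was examined in all 10 of the 10 libraries of the study, as the knockout effect in small pre-B cells minus the knockout effect in pro-B cells. This difference was tested for 14161 of the 23420 genes in the files, those with enough counts. The libraries were RNA sequencing libraries of cells sorted from C57BL/6 mouse bone marrow. Pro-B cells (B220+ IgM- CD43+) gave 2 control libraries and 2 libraries of a Vav-driven Mta2 knockout (KO), and small pre-B cells gave 3 of each (a gate on small size and on B220+ IgM- CD43-). Vav drives expression throughout the blood lineages, so the deletion is not restricted to B cells. The labels give no age, sex, litter or animal for a library, and p-values therefore measure only the spread between libraries.

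Mta2 belongs to NuRD, a nucleosome remodelling and histone deacetylase complex that moves nucleosomes and strips acetyl groups from histones. Pro-B cells rearrange the immunoglobulin heavy chain gene and depend on interleukin-7. Small pre-B cells are later cells that have stopped dividing and rearrange the light chain genes. A knockout effect can be shared by both stages, differ in size between them, or be opposite in direction, and each form is described in turn.

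The libraries held 17805507 to 52127004 counts, and a count of 3 equalled between 0.0540 and 0.173 CPM (counts per 1e6 counts, with libraries scaled by the trimmed mean of M values). The stages had the markers of their labels, with Spn (CD43) at a mean of 484 CPM in pro-B controls against 133 in small pre-B controls, Rag1 at 221 against 4265 and Il2ra at 16.7 against 356. The pro-B libraries also had RNA of other cell types, with Siglech, a marker of plasmacytoid dendritic cells, at 1622 CPM in the controls against 7.26 in small pre-B controls. Small pre-B KO libraries 1 and 2 had Xist RNA (2518 and 2942 CPM). The other 8 libraries had Y-linked RNA (224 to 674 CPM), so libraries of both sexes were mixed in that group alone. Small pre-B KO 1 also had Y-linked RNA at 8.13 CPM, against 0.0790 in KO 2. Small pre-B control 1 had Xist RNA at 31.4 CPM, against 1.69 and 2.39 in controls 2 and 3. The source of these low levels was not tested. Small pre-B control 3 stood apart, with histone transcripts at 0.953% of counts against at most 0.0399% in any other library. Its file header carries the number of small pre-B control 2 and not that of its own title, so whether the file belongs to that label was not settled, and it was used as labelled. All pro-B libraries had higher totals than all small pre-B libraries, so stage and depth cannot be told apart. The knockout effects themselves were taken within a stage.

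No gene passed the test of the stage difference. The edgeR quasi-likelihood F-test with Benjamini-Hochberg adjustment over all genes called 0 genes with a higher effect in small pre-B cells (0.0% of those tested) and 0 with a lower effect (0.0%). At an unadjusted p below 0.05 there were 907 genes (6.4%), of which 428 were higher and 479 lower. The 95% interval of the difference had a median reach of 0.71 to either side on the log2 scale over all genes tested. The DESeq2 Wald test called 20 genes higher and 38 lower, and limma-voom called 0. Leaving out small pre-B control 2 gave 31 higher and 9 lower in edgeR, and 14 genes were called both there and by DESeq2. Without small pre-B control 3 the counts were 0 and 1, and without small pre-B KO 3 they were 1 and 0.

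The average of the effects of both stages, tested in the same fit, passed for 220 genes higher in the KO (1.55%) and 86 lower (0.607%). Within a stage the test called 5 genes higher (0.0353%) and 0 lower (0.0%) in pro-B cells, and 267 higher (1.89%) and 161 lower (1.14%) in small pre-B cells. These counts do not show that the stages differ, since the test of the difference called none. They also depended on how the spread was estimated. With each stage fitted alone, 856 genes were called in pro-B cells and 0 in small pre-B cells.

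**Figure D1:**
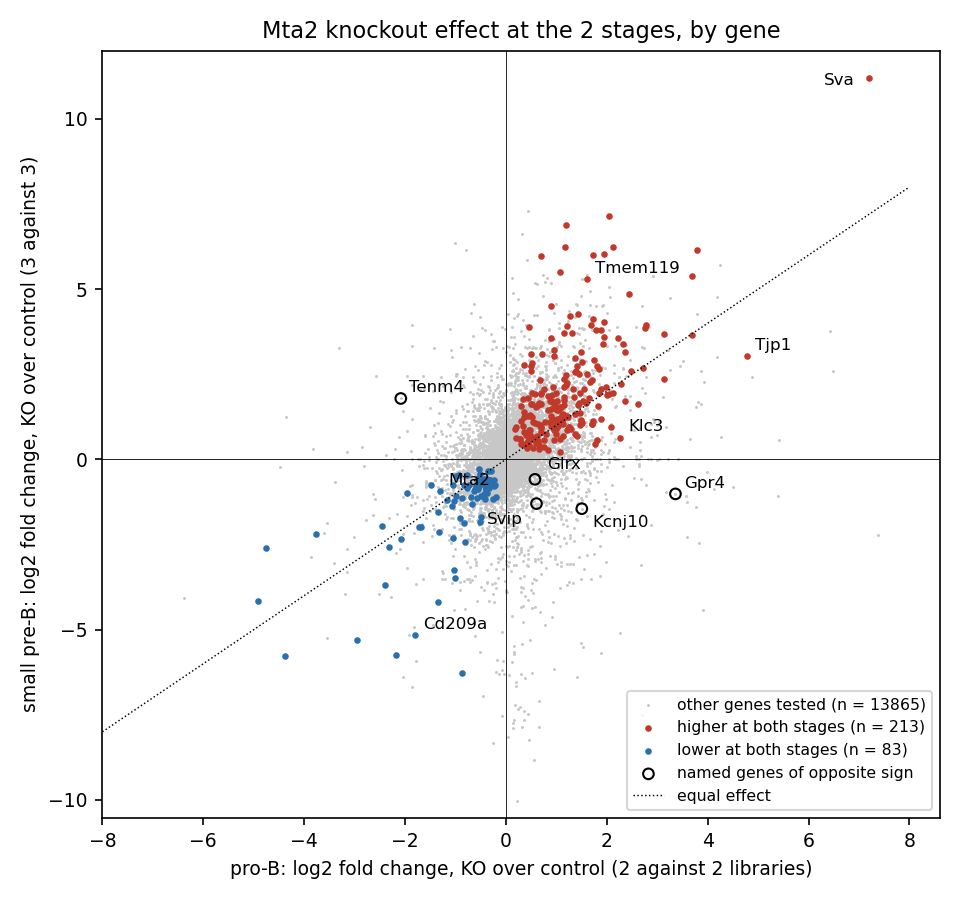
Knockout effect on each of the 14161 genes tested, as log2 fold change of KO over control in pro-B cells (horizontal axis) and small pre-B cells (vertical axis). Red and blue points are the 213 and 83 genes that were higher or lower at both stages, open circles are the named genes of opposite sign, and most coloured points lie further from 0 on the vertical axis than on the horizontal axis.

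Both stages were compared gene by gene, which is possible without shared libraries, although the scaling and the spread estimates are common to them. Over the 14161 genes the knockout log2 fold changes had a Pearson correlation of 0.329 and a Spearman correlation of 0.353, and 61.9% had the same sign. Over the 9172 genes with a mean of at least 10 CPM the Pearson correlation was 0.361. Of the 428 genes called in small pre-B cells, 388 (90.7%) had the same sign in pro-B cells. In 333 of them (77.8%) both pro-B KO libraries also lay beyond both controls in that direction, against 37.9% of all genes tested, and in 19 (4.44%) they lay beyond them in the opposite direction, against 17.6% of all genes.

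The order of the effect sizes depended on the stage by which genes were chosen. The 267 genes called higher in small pre-B cells had a median log2 fold change of 1.63 there and 0.54 in pro-B cells. The 161 called lower had medians of -1.04 and -0.25. Choosing genes by their small pre-B values makes those values larger, and the reverse choice turned the order of sizes. Of the 913 genes with an unadjusted pro-B p below 0.05, the 659 higher ones had medians of 1.15 in pro-B and 0.58 in small pre-B cells, the 254 lower ones had medians of -0.72 and -0.37, and 611 had the larger effect in pro-B cells. The 913 genes with an unadjusted pro-B p below 0.05 included 734 (80.4%) with the same sign in small pre-B cells. In 421 of them (46.1%) all 3 small pre-B KO libraries lay beyond all 3 controls in that direction, against 19.1% of all genes. With each stage fitted alone, 675 of the 856 genes called in pro-B cells were among the 12357 genes tested in both fits, and 585 of them (86.7%) had the same sign in small pre-B cells.

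A gene was described as moving the same way at both stages when its average effect passed the test and every KO library lay beyond every control in the same direction at each stage. The second condition alone held for 1065 genes higher (7.52%) and 840 lower (5.93%). Together the conditions held for 213 genes higher (1.5%) and 83 lower (0.586%), 296 in all. The median log2 fold change of the 213 was 1.07 in pro-B and 1.60 in small pre-B cells, and that of the 83 was -0.61 and -0.93. The effect was larger in small pre-B cells for 229 of the 296 genes and larger in pro-B cells for 67, where 9558 and 4603 of all genes tested had these orders. The 95% interval of the stage difference included 0 for 153 of the 213 and 60 of the 83.

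The 213 higher genes were often little transcribed without the knockout. In small pre-B controls 84 of them (39.4%) had a mean under 1 CPM, against 18.8% of all genes tested, and their median level was 2.50 CPM in controls and 8.78 in KO libraries. In pro-B cells 38 (17.8%) were under 1 CPM in controls, against 14.7% of all genes, and the median levels were 8.74 and 16.6 CPM. The test of the average effect could call such genes because the KO libraries were high, so these levels are a description only. In 6 of the 213 genes all small pre-B controls had 0 counts.

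The 296 genes, whose direction was fixed by how they were chosen, did not keep their calls in each alternative fit. All 296 were called without small pre-B control 2 or without small pre-B control 3. Between 1 and 16 were called without a pro-B library, namely 1 without control 1, 15 without control 2, 16 without KO 1 and 13 without KO 2. Without small pre-B control 1 the count was 112, and without KO 1, KO 2 or KO 3 it was 91, 81 and 144. Without both KO libraries that had Xist RNA it was 4 of 295 tested, and with Xist RNA as a covariate 11. With the title number as a replicate block it was 126. Of the 21 genes named for the average effect, Sva was called in each of 20 alternative fits and the other 20 lost the call in at least 1.

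**Figure D2:**
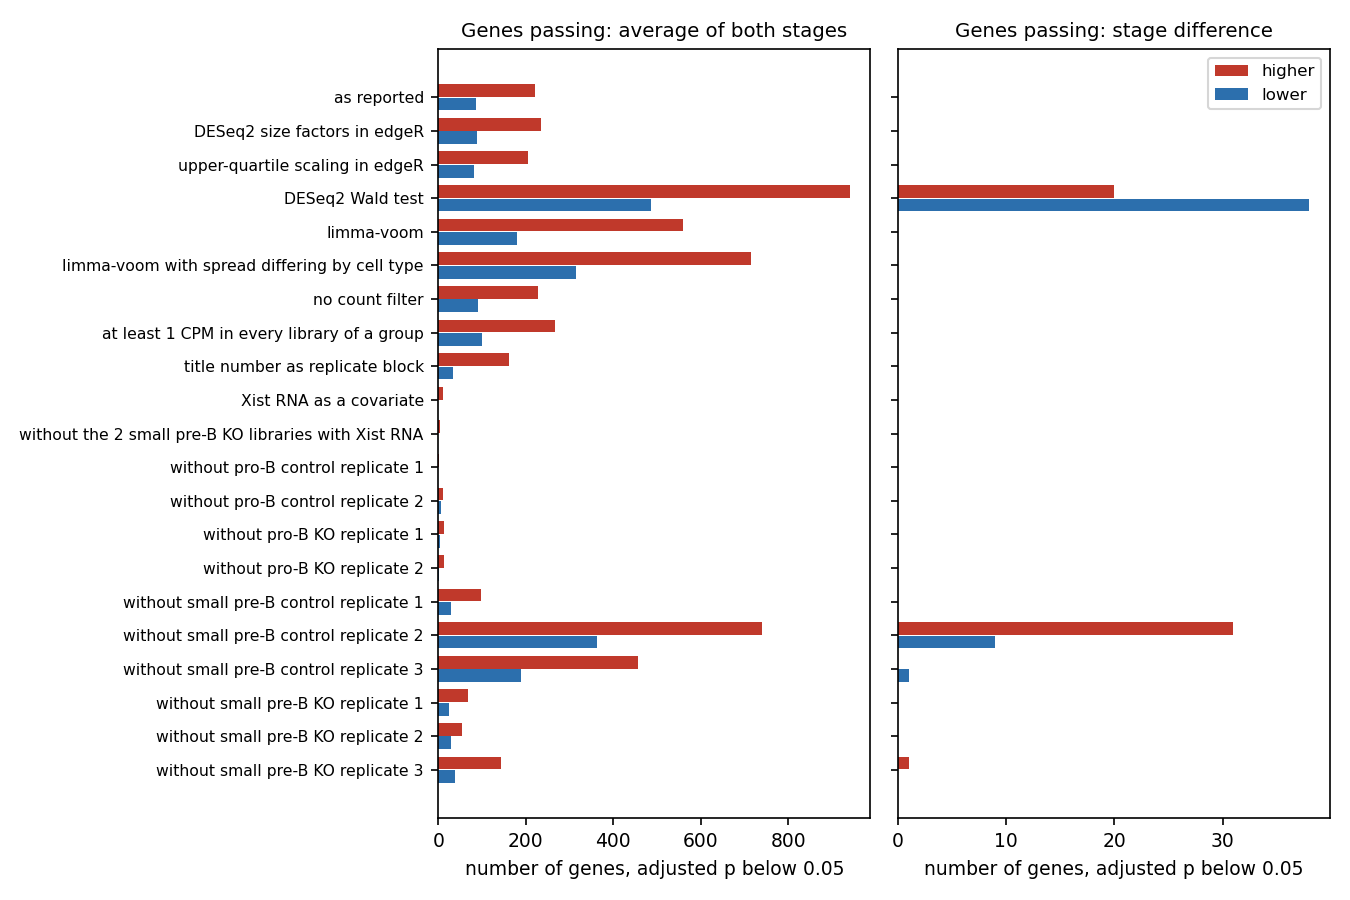
Number of genes with an adjusted p below 0.05 for the average effect (left) and the stage difference (right) in the reported fit and in 20 alternatives. The stage difference has calls only with DESeq2 (20 and 38), without small pre-B control 2 (31 and 9), without control 3 (0 and 1) and without KO 3 (1 and 0), while the average effect falls to 1 higher gene without pro-B control 1.

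Mta2 itself (chromosome 19, 8941920 to 8952300, mm10) is the check of the labels. It was at 436 and 375 CPM in pro-B controls and 163 and 166 in pro-B KO libraries. Small pre-B controls had 438, 246 and 412 CPM, against 199, 179 and 198 in KO libraries. All KO libraries lay below all controls of their stage. The average effect was -1.12 in log2 units (SE 0.15, edgeR quasi-likelihood adjusted p = 0.0189), and the stage difference of 0.38 had a 95% interval from -0.30 to 1.06. The average call for Mta2 was kept in 14 of 20 alternative fits and lost in 6, with adjusted p up to 0.142 and the same direction in each. Reads are summed over all exons, so remaining transcript outside a deleted segment is counted as well.

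The promoters of genes that moved the same way or had fitted effects of opposite sign are shown so that their base composition can be seen beside the values that follow. They are the 250 bases before the RefSeq start site (GRCm38.p6, the same assembly as mm10), 5′ to 3′ on the gene's strand. Capitals mark matches on either strand to the octamer ATGCAAAT, the Ikaros core TGGGAA and the box TATAAA, and no letters of these motifs overlapped each other. Sva (chr6:42038144-42038393, + strand) and Tjp1 (chr7:65371245-65371494, - strand) had the smallest p of the average effect among higher genes.
Sva: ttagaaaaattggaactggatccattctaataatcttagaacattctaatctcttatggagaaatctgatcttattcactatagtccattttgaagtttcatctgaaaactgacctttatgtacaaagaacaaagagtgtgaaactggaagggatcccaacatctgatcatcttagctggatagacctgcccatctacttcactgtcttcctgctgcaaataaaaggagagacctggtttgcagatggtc
Tjp1: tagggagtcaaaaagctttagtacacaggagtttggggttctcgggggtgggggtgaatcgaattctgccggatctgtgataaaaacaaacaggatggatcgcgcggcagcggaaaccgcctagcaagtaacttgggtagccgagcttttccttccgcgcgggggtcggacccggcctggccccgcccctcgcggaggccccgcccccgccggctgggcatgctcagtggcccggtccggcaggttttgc
Cd209a (chr8:3748985-3749234, - strand) and Fam189a1 (chr7:65156529-65156778, - strand) were among the lower genes with the smallest p.
Cd209a: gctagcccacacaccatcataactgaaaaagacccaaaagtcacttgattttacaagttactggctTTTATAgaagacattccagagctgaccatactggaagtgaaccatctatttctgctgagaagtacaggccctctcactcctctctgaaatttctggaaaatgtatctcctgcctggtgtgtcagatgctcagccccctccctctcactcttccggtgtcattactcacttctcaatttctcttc
Fam189a1: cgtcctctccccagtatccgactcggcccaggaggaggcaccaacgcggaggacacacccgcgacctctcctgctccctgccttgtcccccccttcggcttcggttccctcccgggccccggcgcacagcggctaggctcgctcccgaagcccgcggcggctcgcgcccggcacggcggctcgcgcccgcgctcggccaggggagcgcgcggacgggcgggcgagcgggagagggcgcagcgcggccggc
Gpr4 (chr7:19212288-19212537, + strand) and Kcnj10 (chr1:172340960-172341209, + strand) had fitted effects of opposite sign at the 2 stages, although the small pre-B groups of Gpr4 overlapped.
Gpr4: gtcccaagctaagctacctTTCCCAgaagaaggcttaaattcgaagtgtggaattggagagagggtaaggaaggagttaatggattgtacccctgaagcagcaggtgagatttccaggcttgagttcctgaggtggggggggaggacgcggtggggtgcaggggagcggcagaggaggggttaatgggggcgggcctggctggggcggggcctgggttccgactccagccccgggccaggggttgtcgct
Kcnj10: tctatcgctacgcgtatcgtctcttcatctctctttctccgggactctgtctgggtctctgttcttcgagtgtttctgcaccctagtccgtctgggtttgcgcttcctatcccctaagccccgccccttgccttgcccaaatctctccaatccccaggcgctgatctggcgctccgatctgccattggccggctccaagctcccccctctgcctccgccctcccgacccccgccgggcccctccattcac
The promoters differed widely in composition, with 37.6% GC and no CpG in Sva, 44.8% GC in Cd209a, 63.2% in Tjp1 and 78.4% in Fam189a1. One motif match each was found in Cd209a (TATAAA on the opposite strand, 184 bases before the start) and Gpr4 (TGGGAA on the opposite strand, 231 bases before it). Among 10036 promoters of tested genes the octamer was in 1.3%, the Ikaros core in 20.7% and TATAAA in 6.67%. A comparison of composition between the 296 genes and the others was void, since part of each set had no promoter to compare. A promoter near the start in the files was available for 70.4% of the 213, 74.7% of the 83 and 70.9% of all genes tested.

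Sva (chromosome 6, 42038394 to 42042851, mm10), which encodes a secreted seminal vesicle antigen, had the largest average effect of the genes named. It was at 0.0191 and 0.0180 CPM in pro-B controls and 3.002 and 3.49 in pro-B KO libraries. In small pre-B cells it had 0 counts in the 3 controls and 8.71, 7.15 and 8.76 CPM in the KO libraries. All 5 KO libraries stood apart from all 5 controls, and small pre-B KO libraries were above pro-B KO libraries. The small pre-B level was at least 211-fold higher than a floor of 3 counts over the controls. The average effect passed (adjusted p = 0.000343, edgeR quasi-likelihood), and the stage difference did not (adjusted p = 0.754).

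Hspg2 (chromosome 4, 137468803 to 137570630), the basement membrane proteoglycan perlecan, was at 0.153 and 0.576 CPM in pro-B controls and 4.62 and 4.94 in KO libraries. The small pre-B controls were at 0.390, 1.21 and 0.455 CPM, against 6.98, 13.0 and 6.11 in KO libraries. The KO libraries lay above the controls at both stages with no overlap, and the stage difference was -0.04 (95% interval -1.71 to 1.64) around an average of 3.68 (SE 0.46, adjusted p = 0.0169).

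Lama5, the laminin alpha 5 chain of basement membranes, was at 0.267 and 0.666 CPM in pro-B controls and 2.60 and 3.75 in KO libraries. In small pre-B cells the controls had 0.279, 0.806 and 0.824 CPM, against 8.31, 8.38 and 12.1 in KO libraries. It rose from a low level at both stages, with an average of 3.31 (SE 0.36, adjusted p = 0.00742). Serpinh1, the collagen chaperone HSP47, started from different levels. It was at 31.7 and 36.5 CPM in pro-B controls against 81.3 and 83.6 in KO libraries, while small pre-B controls had 1.003, 0.322 and 0.0284 CPM against 11.5, 4.66 and 5.17 in KO libraries. Its average was 2.74 (SE 0.48, adjusted p = 0.0312), and the small pre-B KO levels stayed below the pro-B control levels.

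Tmem119, a transmembrane protein known as a marker of microglia, moved the same way at both stages and was also among the genes with the smallest p of the stage difference. It was at 13.3 and 15.9 CPM in pro-B controls and 40.9 and 47.4 in KO libraries. Controls of the small pre-B stage had 0.111, 0.201 and 0.0568 CPM, against 7.44, 3.48 and 3.45 in KO libraries. The log2 fold change was 1.60 in pro-B and 5.30 in small pre-B cells, and the difference of 3.70 (95% interval 2.28 to 5.13, unadjusted) had an adjusted p of 0.471. Tjp1, a scaffold of tight junctions named after its values were seen, had the reverse order of effects. It was at 0.630 and 0.810 CPM in pro-B controls and 18.1 and 21.4 in KO libraries, while small pre-B controls had 0.0557, 0.201 and 0.142 CPM against 1.85, 0.790 and 0.932 in KO libraries. Its log2 fold changes were 4.77 and 3.04, with an average of 3.90 (SE 0.33, adjusted p = 0.00357).

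The remaining leading higher genes had average log2 fold changes between 2.75 and 3.28. They were the CD3 epsilon gene Cd3e, the proteoglycan Spock2, the receptor pseudokinase Ptk7, the solute carrier Slc45a3 and the adhesion molecule Pvrl2 (nectin-2). Pvrl2 was at 0.554 and 0.954 CPM in pro-B controls and 5.48 and 7.77 in KO libraries. Levels in small pre-B controls were 0.390, 0.765 and 0.483 CPM, against 2.65, 3.20 and 2.70 in KO libraries. Slc45a3 ended at different levels, from a mean of 2.46 CPM in pro-B KO to 12.5 CPM in small pre-B KO libraries, with 0.666 and 0.901 in the controls.

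Lower genes were fewer than higher ones. The 83 had a median of 21.5 CPM in pro-B controls and 29.2 in small pre-B controls, against 24.3 and 21.3 for all genes tested. A gene can be called lower only where its controls are high enough, so these levels are a description only. Egfl6 (chromosome X, 166523007 to 166585716), a secreted protein with epidermal growth factor repeats, was at 9.63 and 3.36 CPM in pro-B controls and 1.42 and 1.17 in KO libraries. Small pre-B controls had 34.8, 22.3 and 47.9 CPM, against 5.42, 7.55 and 4.62 in KO libraries. Its log2 fold changes of -2.32 and -2.57 differed by -0.25 (95% interval -1.72 to 1.22), and the average of -2.45 passed (SE 0.34, adjusted p = 0.0189). The groups did not overlap at either stage.

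Reln, the secreted matrix protein reelin, was far more abundant in small pre-B than in pro-B cells. Reln had 13.9 and 9.16 CPM in pro-B controls and 5.42 and 7.69 in KO libraries, while small pre-B controls had 344, 338 and 952 CPM against 88.9, 116 and 101 in KO libraries. The control at 952 CPM was control 3, the library that stood apart. The average for Reln was -1.61 (SE 0.32, adjusted p = 0.0412), and -1.28 without that library.

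The other lower genes named had averages between -2.25 and -1.31. They were the zinc finger genes Zfp418 and Zfp459, the microtubule-associated protein Eml6, the actin nucleator Fmn2, the inflammasome sensor Naip6, the transporter Slco5a1, the lymphatic growth factor Vegfc and Tsga10. Vegfc was at 6.65 and 6.53 CPM in pro-B controls and 3.60 and 3.79 in KO libraries. The small pre-B controls were at 3.46, 2.42 and 2.53 CPM, against 0.865, 0.751 and 0.699 in KO libraries. Naip6 belongs to a family of near-identical copies, and Naip1 and Naip5 were also among the 83, so reads of these genes may have been split between them. Cd209a, a lectin of dendritic cells and likewise one of several similar genes, was at 94.8 and 83.9 CPM in pro-B controls and 25.9 and 25.1 in KO libraries. Its small pre-B levels were 0.836, 0.927 and 0.369 CPM in controls against 0, 0.0395 and 0 in KO libraries, so its small pre-B values rest on few counts.

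**Figure D3:**
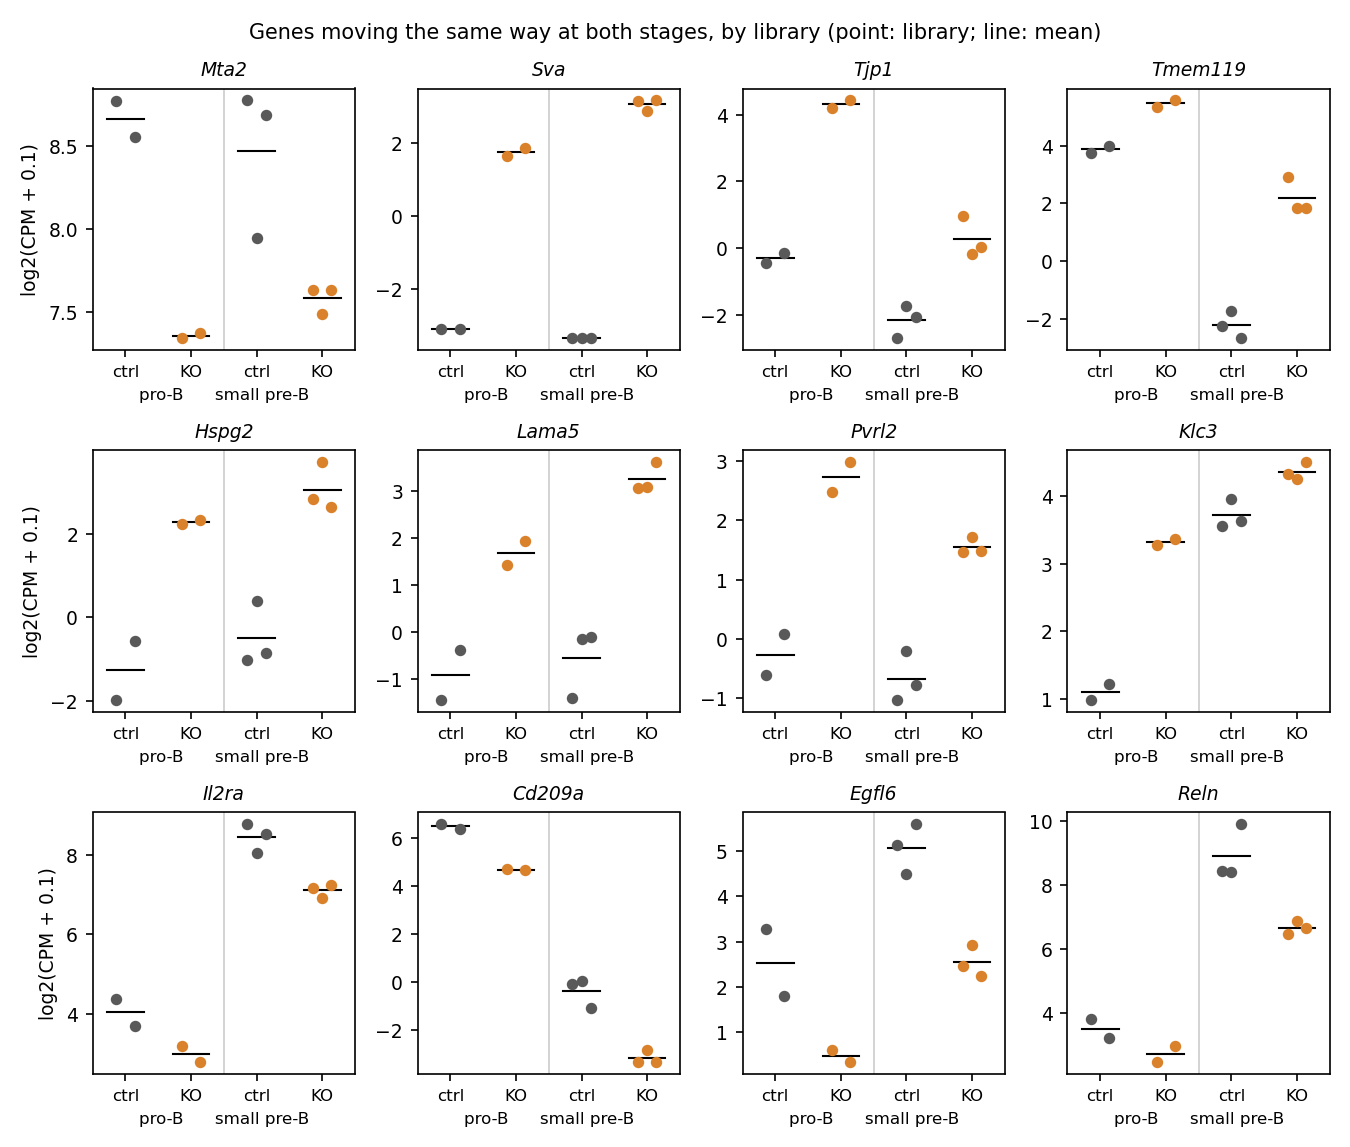
Level of 12 genes that moved the same way at both stages, as log2(CPM + 0.1) on the vertical axis, with 1 point per library and a line at the group mean. In each panel all KO libraries (orange) lie on the same side of the controls (grey) at both stages.

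Of the 296 genes the largest shares were on chromosome 11 (31 genes, 10.5%, against 8.55% of genes tested) and chromosome 7 (26, 8.78% against 7.70%). Chromosome 19, which holds Mta2, had 14 (4.73% against 3.57%). Shares below those of the genes tested were on chromosome 12 (1.01% against 3.33%), chromosome 3 (2.70% against 4.68%) and chromosome 9 (3.38% against 5.58%), among others. No test was made of these shares.

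The genes with the smallest p of the stage difference were described although none passed. The 5 higher ones were Tenm4, Tmem119, Notch3, Cltb and Rras2, and the 5 lower ones were Slc46a3, Klc3, Gpr4, Zmpste24 and Kcnj10, with adjusted p from 0.430 to 0.471 (edgeR quasi-likelihood). All 10 had an adjusted p below 0.05 with DESeq2. Without small pre-B control 2, Notch3, Slc46a3 and Gpr4 also passed in edgeR, Gpr4 passed without small pre-B control 3, and Tenm4 passed without small pre-B KO 3.

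In one pattern a gene was high in pro-B cells of both genotypes and the effect was larger in small pre-B cells. Notch3 (chromosome 17, 32120893 to 32166852), a receptor of the Notch pathway, was at 37.7 and 28.7 CPM in pro-B controls and 44.7 and 40.1 in KO libraries. In small pre-B cells the controls had 0.167, 0.322 and 0.114 CPM, against 1.67, 1.34 and 1.07 in KO libraries. The small pre-B KO level lay between a near-silent control level and the pro-B level. Its log2 fold changes were 0.35 and 2.77, a difference of 2.42 (95% interval 1.41 to 3.43, unadjusted).

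Rras2, a small GTPase related to Ras, was at 52.7 and 61.1 CPM in pro-B controls and 58.4 and 56.4 in KO libraries. Its small pre-B levels were 26.7, 31.4 and 29.9 CPM in controls and 54.2, 60.7 and 51.9 in KO libraries. The small pre-B KO libraries were within the range of the pro-B libraries or just below it, and the log2 fold changes were 0.01 and 0.92. Cltb, a clathrin light chain, was at 22.4 and 23.8 CPM in pro-B controls and 21.1 and 26.1 in KO libraries. Its small pre-B levels were 3.46, 4.51 and 3.47 CPM in controls and 9.75, 9.76 and 9.32 in KO libraries, and the log2 fold changes were 0.03 and 1.33.

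Slc46a3 (chromosome 5, 147878441 to 147894802), a lysosomal transporter, had the smallest p of all genes tested, and its small pre-B KO libraries were lower. It was at 36.3 and 37.98 CPM in pro-B controls and 38.8 and 40.3 in KO libraries. Controls of the small pre-B stage had 6.97, 5.68 and 6.76 CPM, against 1.96, 2.65 and 2.38 in KO libraries. The pro-B KO libraries lay just above their controls, by 0.09 on the log2 scale, and the small pre-B groups differed by -1.47, a stage difference of -1.56 (95% interval -2.06 to -1.05, unadjusted, adjusted p = 0.430).

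In another pattern the effect was larger in pro-B cells. Klc3, a kinesin light chain, was at 1.87 and 2.21 CPM in pro-B controls and 9.53 and 10.2 in KO libraries. Levels in small pre-B controls were 11.7, 15.5 and 12.3 CPM, against 20.1, 18.9 and 22.5 in KO libraries. It moved the same way at both stages, with log2 fold changes of 2.27 and 0.64 and a difference of -1.63 (95% interval -2.21 to -1.05, unadjusted). Zmpste24, the protease that processes prelamin A, was at 84.6 and 81.1 CPM in pro-B controls and 133 and 175 in KO libraries, against 104, 96.5 and 106 CPM in small pre-B controls and 83.5, 89.0 and 92.3 in KO libraries. Its groups did not overlap at either stage, with log2 fold changes of 0.89 and -0.21.

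KO libraries lay beyond the controls in opposite directions at the 2 stages for 344 genes (2.43%), of which 196 were higher and 148 lower in pro-B KO cells. Tenm4 (chromosome 7, 96210637 to 96908554), a teneurin adhesion protein, was at 11.1 and 13.0 CPM in pro-B controls and 3.02 and 2.66 in KO libraries. Small pre-B controls had 0.334, 0.242 and 0.341 CPM, against 1.44, 1.30 and 0.466 in KO libraries. The gene was low in all small pre-B libraries, and the difference of 3.87 had a 95% interval from 2.51 to 5.23 (unadjusted, adjusted p = 0.430).

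Gpr4, a receptor for protons, was at 6.76 and 6.06 CPM in pro-B controls and 64.2 and 67.6 in KO libraries. The small pre-B controls were at 0.613, 0.685 and 2.44 CPM, against 0.519, 0.751 and 0.653 in KO libraries. The small pre-B groups overlapped, and their difference rests on control 3. The stage difference was -4.37, and -3.37 without that library. Kcnj10, an inward rectifier potassium channel, was at 1.13 and 1.48 CPM in pro-B controls and 3.97 and 3.43 in KO libraries, while small pre-B controls had 0.7804, 0.645 and 0.852 CPM against 0.173, 0.316 and 0.326 in KO libraries.

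Svip, an inhibitor of protein degradation at the endoplasmic reticulum, was at 5.73 and 6.68 CPM in pro-B controls and 8.22 and 10.6 in KO libraries, while small pre-B controls had 3.46, 2.54 and 2.44 CPM against 1.15, 1.22 and 1.03 in KO libraries. Glrx, the thiol oxidoreductase glutaredoxin, was at 36.1 and 35.7 CPM in pro-B controls and 49.0 and 58.0 in KO libraries, while small pre-B controls had 42.2, 31.9 and 32.8 CPM against 27.4, 23.2 and 20.7 in KO libraries. At both stages the groups of both genes did not overlap, and the stage differences of -1.90 and -1.16 did not pass (edgeR quasi-likelihood adjusted p of 0.471 and 0.533).

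Markers of myeloid cells moved with the pro-B groups. The 17 markers tested summed to 8666 to 8886 CPM in pro-B controls and 14160 to 20536 in pro-B KO libraries. All 17 had pro-B KO libraries above the controls, with a median log2 fold change of 1.001. Among all genes tested, pro-B KO libraries lay beyond both controls in the small pre-B direction for 37.9% and in the opposite direction for 17.6%. In small pre-B cells 2 of the 17 were higher with no overlap. For all genes tested the small pre-B shares were 19.1% in the pro-B direction and 5.90% in the opposite one. The 17 markers summed there to 122 to 336 CPM in controls and 219 to 455 in KO libraries, with a median of 0.62. None was at 0 in either stage. Their part in the pro-B effects on Gpr4 and other genes was not tested, and in bulk samples more cells of a type and more RNA per cell cannot be told apart.

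**Figure D4:**
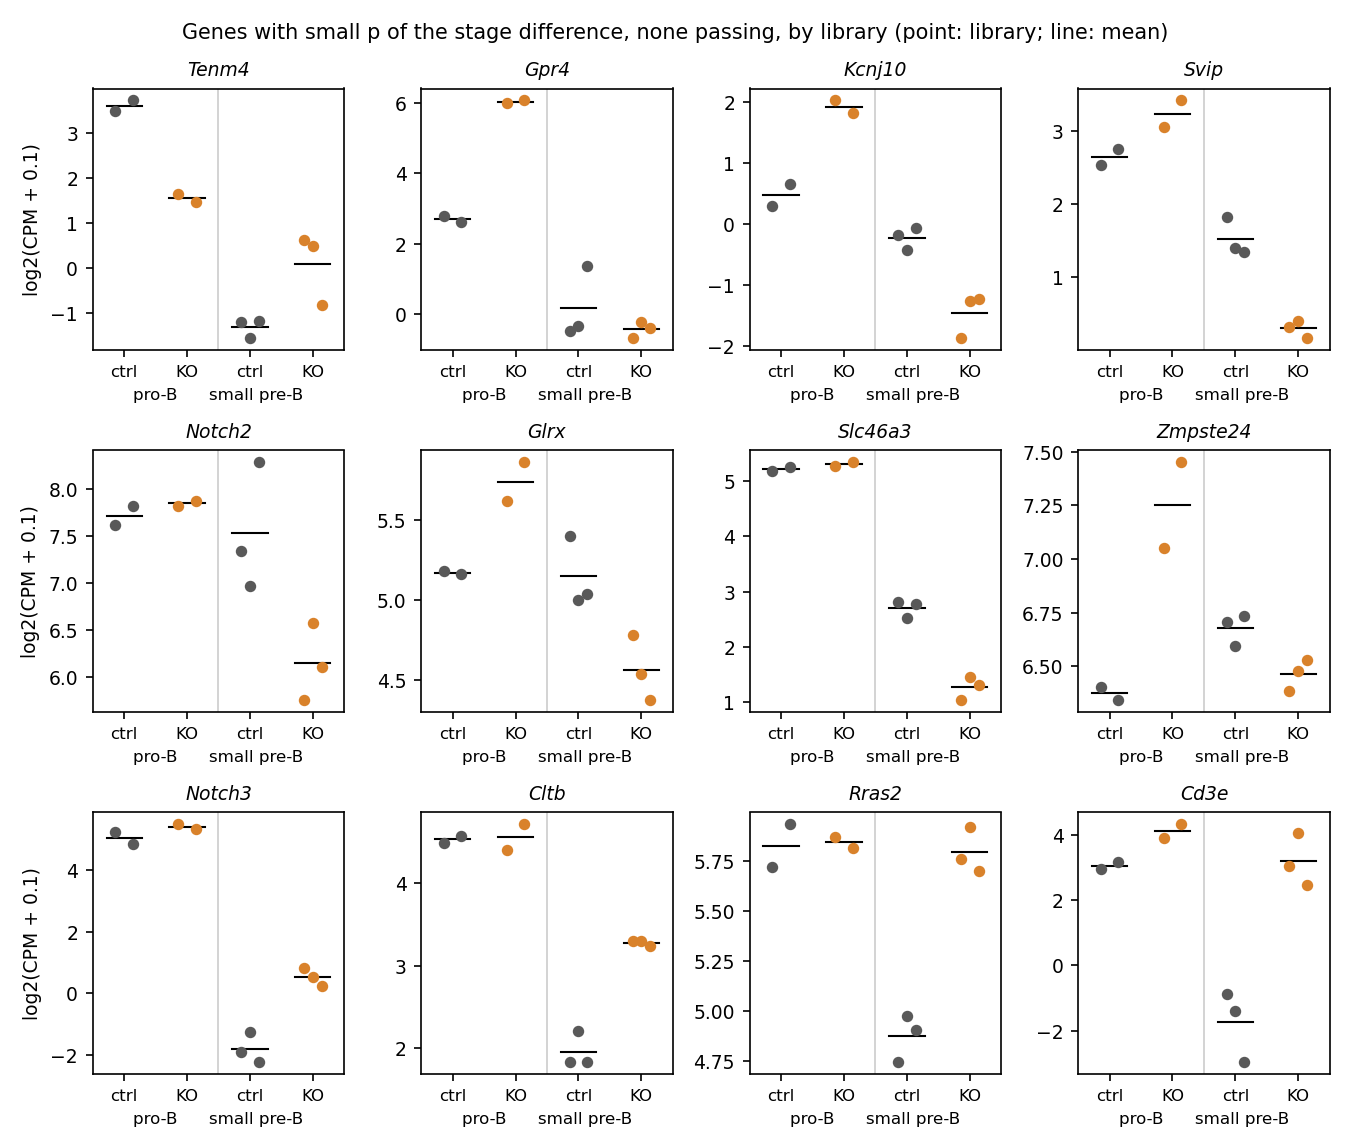
Level of 12 genes with small p of the stage difference, as log2(CPM + 0.1) on the vertical axis, with 1 point per library and a line at the group mean. In Kcnj10, Svip, Notch2 and Glrx the KO libraries (orange) lie above the controls (grey) in pro-B cells and below them in small pre-B cells, and in Notch3, Cltb and Rras2 they are further from the controls in small pre-B cells.

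The 24 gene lists were described by their counts and medians, beside medians over all genes of -0.01 in pro-B, 0.01 in small pre-B and 0.01 for the stage difference. All list calls are from the edgeR quasi-likelihood test. No member of any list passed the stage difference. The 14 list genes among the 296 shared ones were Mta2, Ltb, Il2ra, Notch3, Bbc3, Lama5, Serpinh1, Hspg2, Cd3e, Cd3d, Cd247, Lat, Ly6c2 and Cd209a.

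Since 0.0353% of all genes tested were called higher and 0.0% lower in pro-B cells, and 1.89% and 1.14% in small pre-B cells, a count of 0 or 1 in a list is near the background and says nothing about that list. Of 23 B lineage transcription factors, 0 were called in either stage, with median log2 fold changes of -0.11 in pro-B and 0.07 in small pre-B cells. Pou2af1, the coactivator OCA-B, was at 571 and 441 CPM in pro-B controls and 417 and 295 in KO libraries, against 2277, 2466 and 1975 CPM in small pre-B controls and 2703, 2691 and 3451 in KO libraries. Its difference of 0.90 (95% interval 0.27 to 1.54, unadjusted) had an adjusted p of 0.689. Pax5, which maintains B cell identity, had log2 fold changes of -0.56 and 0.13 and overlapping small pre-B groups.

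The surrogate light chain genes are expressed in pro-B and early pre-B cells to form the pre-B cell receptor. Of the 16 genes of that receptor and its signalling, 0 were called in either stage. Igll1 was at 221 and 238 CPM in pro-B controls and 240 and 168 in KO libraries, while small pre-B controls had 194, 137 and 57.6 CPM against 462, 221 and 254 in KO libraries. The small pre-B KO libraries lay above the controls and the pro-B groups overlapped, with a difference of 1.45 (95% interval -0.03 to 2.92). Of 12 V(D)J recombination genes 0 were called, and the medians were -0.16 and -0.15.

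Genes of proliferation had negative log2 fold changes in pro-B cells, in 20 of 20 G2 and M phase genes and 20 of 20 S phase genes, and 10 and 17 of them were lower with no overlap. Among all genes tested, pro-B KO libraries lay beyond both controls in the small pre-B direction for 37.9% and in the opposite direction for 17.6%. These shares hold higher and lower genes together. None of the G2 and M phase or S phase genes was called at either stage. The medians were -0.16 in pro-B and -0.15 in small pre-B cells for G2 and M phase, and -0.26 and 0.06 for S phase. For the S phase genes 18 of 20 stage differences were positive, with a median of 0.30. Of 18 genes of the interleukin-7 receptor pathway 0 were called. Ccnd2, a cyclin of the G1 phase, was at 99.0 and 126 CPM in pro-B controls and 102 and 106 in KO libraries, while small pre-B controls had 19.3, 44.6 and 7.24 CPM against 82.8, 143 and 58.1 in KO libraries. Its small pre-B KO libraries lay above the controls, and the difference of 2.11 had an adjusted p of 0.738.

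Among markers of B cell maturation, Il2ra and Ltb moved the same way at both stages. Il2ra (CD25), which rises at the pre-B stage, was at 20.5 and 12.8 CPM in pro-B controls and 8.99 and 6.76 in KO libraries. In small pre-B cells the controls had 437, 263 and 369 CPM, against 144, 120 and 152 in KO libraries. The KO libraries were below the controls at both stages, and the log2 fold changes of -1.08 and -1.36 differed by -0.28 (95% interval -1.10 to 0.54). Ltb, lymphotoxin beta, had an average of 0.81 (SE 0.14, adjusted p = 0.0312).

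Bbc3 (PUMA), which promotes apoptosis, was the 1 gene called of 14 in the p53 list and of 14 in the BCL2 family list, and moved the same way at both stages. Bbc3 was at 9.99 and 12.3 CPM in pro-B controls and 21.7 and 19.4 in KO libraries, while small pre-B controls had 7.30, 10.4 and 5.88 CPM against 15.3, 15.7 and 19.9 in KO libraries. The average was 0.996 (SE 0.17, adjusted p = 0.0312) and the difference 0.23 (95% interval -0.55 to 1.01).

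The widest gaps between the list medians of the stages were in the T cell, natural killer and interferon lists. Of 16 T cell genes, 6 were called higher in small pre-B cells, against 1.89% of all genes tested, and the median log2 fold changes were 2.06 there and 0.41 in pro-B cells. The pro-B count of 0 is uninformative, with 0.0353% of all genes called. Cd3e was at 7.62 and 8.85 CPM in pro-B controls and 14.8 and 19.9 in KO libraries, while small pre-B controls had 0.446, 0.282 and 0.0284 CPM against 8.13, 16.6 and 5.41 in KO libraries. Cd3d, Cd247 and the adaptor Lat also moved the same way at both stages, whereas Cd4 had a small pre-B log2 fold change of 0.11. Summed over the list the small pre-B libraries were at 177 to 294 CPM in controls and 207 to 300 in KO libraries, and Cd2, which B cells also express, was most of that sum at a mean of 175 CPM in controls. The part of T cells in these values was not tested.

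Of 17 interferon response genes, 17 had a positive log2 fold change in small pre-B cells and 16 in pro-B cells, with medians of 1.13 and 0.27, and all 17 stage differences were positive. Of these genes 1 was called in small pre-B cells. Irf7, a transcription factor induced by interferon, was at 133 and 165 CPM in pro-B controls and 196 and 142 in KO libraries, while small pre-B controls had 10.4, 10.1 and 5.57 CPM against 15.7, 22.0 and 18.6 in KO libraries. Its small pre-B effect of 1.13 passed (adjusted p = 0.0482), and its stage difference did not (adjusted p = 0.738).

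The extracellular matrix list had the same median at both stages, 0.87 in pro-B and 0.87 in small pre-B cells over 16 genes tested, but its members did not match. The sign was the same at both stages for 9 of 16, and 4 were called higher in small pre-B cells and 0 in pro-B cells, against 1.89% and 0.0353% of all genes tested. In pro-B cells 11 members were higher with no overlap, and in small pre-B cells 4. Over all genes tested, pro-B groups did not overlap in the small pre-B direction for 37.9% and in the opposite one for 17.6%. The small pre-B shares were 19.1% in the pro-B direction and 5.90% in the opposite one. These shares hold higher and lower genes together. No overlap was thus more common among pro-B groups, which had fewer libraries, so 11 against 4 does not show a stage difference. Sparc, a matrix glycoprotein, was at 0.115 and 0.180 CPM in pro-B controls and 0.528 and 4.28 in KO libraries, and between 0.0790 and 0.313 CPM in all small pre-B libraries. In the NuRD list, whose other subunits assemble with Mta2, 1 of 15 genes was called in small pre-B cells, which was Mta2, and 0 others at either stage. Mta1 and Mta3, the paralogs of Mta2, had stage differences of 0.51 (95% interval -0.34 to 1.36) and 0.19 (95% interval -0.35 to 0.73).

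In the Notch list 1 of 15 genes, Notch3, was called higher and 1 lower in small pre-B cells. The lower one was Notch2, at 162, 125 and 311 CPM in small pre-B controls and 53.8, 95.2 and 68.8 in KO libraries, with pro-B values of 196 and 225 in controls and 226 and 234 in KO libraries. Its stage difference was -1.58 (95% interval -2.72 to -0.45, unadjusted, adjusted p = 0.689). The ligand gene Dll1 had log2 fold changes of -1.32 in pro-B and 1.35 in small pre-B cells. Markers of natural killer cells had medians of -0.08 and 0.94 with 0 of 11 called. Their sums in small pre-B cells overlapped, at 12.6 to 157 CPM in controls and 120 to 230 in KO libraries. Markers of plasma, erythroid and plasmacytoid dendritic cells had medians between -0.29 and 0.23. In small pre-B cells 1 of 12 plasmacytoid dendritic cell markers was called higher and 1 lower, and 1 of 8 plasma cell markers was called higher.

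The remaining lists had few calls. In the stem and progenitor list 1 of 11 genes, the growth factor receptor gene Kit, was called higher in small pre-B cells, with log2 fold changes of 0.67 in pro-B and 2.54 in small pre-B cells. Glycolysis genes were positive in 16 of 17 cases in pro-B and 17 of 17 in small pre-B cells, with medians of 0.27 and 0.38 and 0 called. Cholesterol synthesis genes had medians of 0.12 and 0.14 over 20 genes, with 1 called lower in small pre-B cells. The 10 genes of MHC class II presentation (0.09 and 0.12) and the 17 immediate early genes (0.15 and -0.09) had 0 called.

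**Figure D5:**
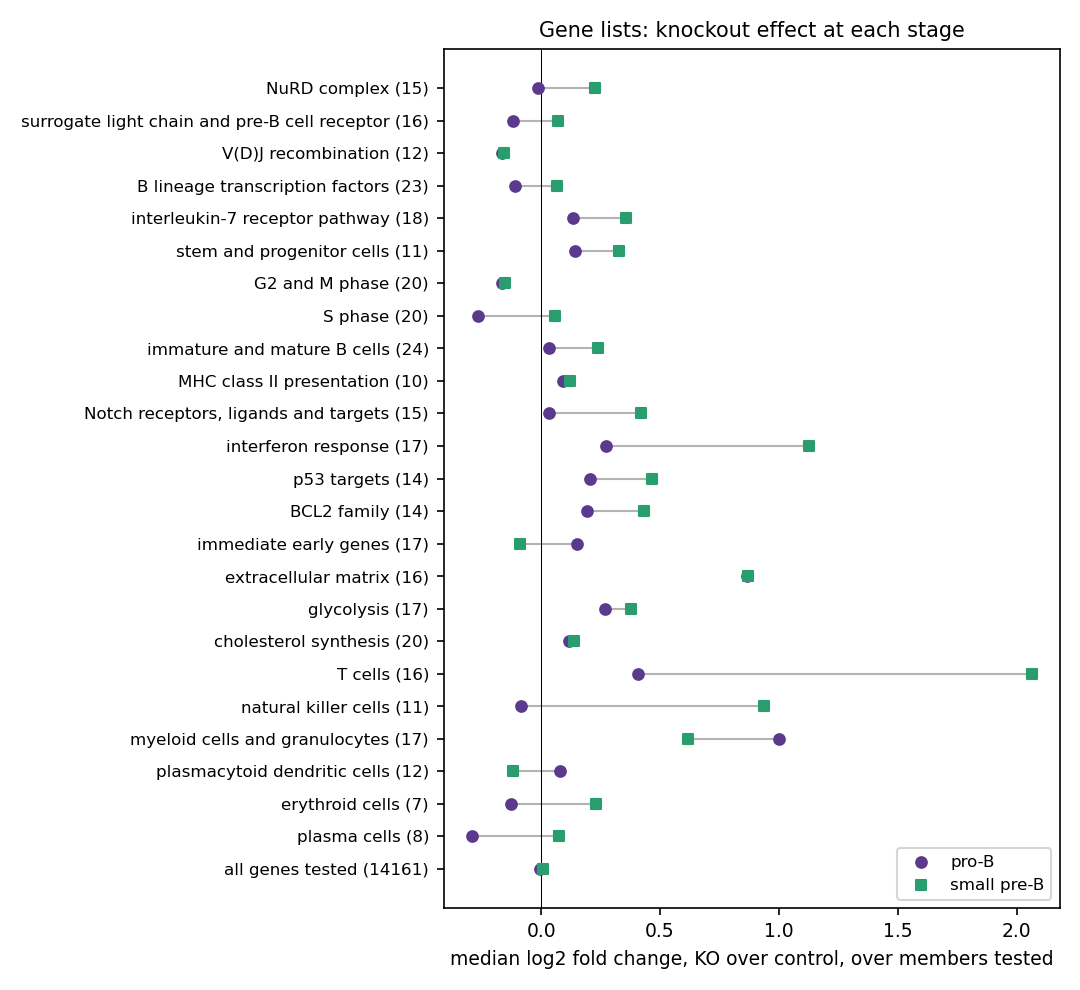
Median log2 fold change of KO over control for each gene list in pro-B cells (circles) and small pre-B cells (squares), with the number of members tested in parentheses. The T cell, natural killer and interferon lists lie further right in small pre-B cells, the myeloid list further right in pro-B cells, and the extracellular matrix list at the same place in both.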

How the data were processed

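RNA of sorted pro-B and small pre-B cells was sequenced from stranded poly(A) libraries, per the labels' protocols. The authors deposited whole-number read counts per gene, made with featureCounts 1.4.3-p1 over exons of an mm10 annotation with no strand option, per the file headers. CASAVA 1.82, STAR and the build mm9 are listed in the submitters' processing notes, whereas the headers name mm10. Without strand, reads of a gene and its antisense partner cannot be told apart.

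Groups came from the labels. The counts were fitted with edgeR 4.0.16 (R 4.3.3), with the 4 groups as means over all 10 libraries, trimmed mean of M values scaling, a filter by expression (minimum count 10, minimum total 15) and the robust quasi-likelihood F-test, and p-values were adjusted by the Benjamini-Hochberg method over all genes tested at a threshold of 0.05. The stage difference, the average and both single-stage effects were contrasts of that fit. Printed intervals are 95% and not adjusted. Genes were named by rule: the targeted gene, up to 10 a direction by size of the average effect among genes moving the same way at both stages with a mean of at least 2 CPM in a group of each stage, the 5 with the smallest p a direction where fewer passed the stage difference, up to 6 of opposite sign, and up to 4 members of each list. Genes named beyond it (Tjp1, Cd209a, Fam189a1, Irf7, Bbc3, Cd247, Lat, Cd3d, Cd4, Cd2, Siglech, Mta3, Naip1 and Naip5 among them) were chosen after their values were seen. The members and lists were chosen with earlier results of these data known. Alternatives used DESeq2 1.42.0 and limma 3.58.1. The procedure was tested on simulated data. Pre-B, OcaB knockout and double knockout samples that the series names were not analysed here, and some single genes are not reported here.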

Additional observations from a re-analysis of the deposited data

Results flagged for a closer look

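For 12 genes named by rule, every KO library lay beyond every control in opposite directions at the 2 stages. Several of them were named for a small p of the stage difference or for opposite signs, so their number is no result. The stage difference was tested for each of them and passed for none (edgeR quasi-likelihood with Benjamini-Hochberg adjustment). The DESeq2 Wald test called Tenm4, Slc46a3, Zmpste24 and Kcnj10. It also called Svip, Glrx, Dll1 and Chd5 (adjusted p of 0.00145, 0.00313, 0.0186 and 0.0399), but not Vpreb2, Pou2af1, Notch2 or Pim1. The stage difference was positive, higher in small pre-B cells, for Tenm4 (3.87), the Notch ligand gene Dll1 (2.67), the surrogate light chain gene Vpreb2 (1.70) and Pou2af1 (0.90). It was negative for the NuRD helicase gene Chd5 (-3.997), Kcnj10 (-2.95), Svip (-1.90), Notch2 (-1.58), Slc46a3 (-1.56), Glrx (-1.16), Zmpste24 (-1.11) and the kinase gene Pim1 (-0.92). Levels of Chd5 were low, at 0.420 and 0.270 CPM in pro-B controls and 0.983 and 1.23 in KO libraries. Its small pre-B controls had 0.390, 0.725 and 1.62 CPM, the last in control 3, against 0.115, 0.237 and 0.186 in KO libraries. The pro-B effect on Slc46a3 was 0.09 on the log2 scale, so its sign there rests on a small gap. A small gap also separated the pro-B groups of Notch2, whose levels are given above.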

How the results depend on the processing

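The stage difference called 20 genes higher and 38 lower with DESeq2, and 0 to 31 higher and 0 to 9 lower when libraries were left out one at a time. The average effect called 941 higher and 486 lower with DESeq2, 559 and 179 with limma-voom, and 716 and 316 with a spread that differed by cell type. It called 11 and 0 with Xist RNA as a covariate, 4 and 0 without the 2 small pre-B KO libraries with Xist RNA, 33 lower where the log2 fold change also had to be 1 or more in size, and 1 to 741 higher and 0 to 364 lower with a library left out. The pro-B effect called 182 genes with DESeq2, 148 with limma-voom, 1258 with a spread by cell type, 8 with no filter, 8 with a filter at 1 CPM, 856 fitted alone, 0 without the 2 Xist libraries and 0 to 25 with a library left out. The small pre-B effect called 1852 with DESeq2, 2 with a spread by cell type, 1 with Xist as a covariate, 0 without the 2 Xist libraries, 0 fitted alone and 1 to 1667 with a library left out. The Pearson correlation between the stages ranged from 0.231 to 0.412 with a library left out. The cause of these changes was not tested. Of the 21 average effects and 13 stage differences of single genes that were refitted, none reversed direction. Apart from Mta2, these genes were named for a large effect without overlap or a small p in these same libraries. Their unchanged direction was therefore largely fixed in advance and is no support.

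With the title number as a replicate block, the average effect called 161 genes higher and 34 lower, the pro-B effect 0, the small pre-B effect 153 and the stage difference 0. The numbers were not taken to pair the samples, since same-numbered small pre-B libraries correlated at 0.102, 0.155 and 0.045 in their deviations from the group means. Small pre-B control 3 entered under the number of its title, which its file header does not carry. Each small pre-B library correlated best with its own number, a hint from the data and not from the design.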

Other observations

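Tjp1 and Fam189a1 are neighbours on chromosome 7, with 139637 bases and 0 other tested genes between them, and they moved in opposite directions at both stages. Tjp1 had an average log2 fold change of 3.90 and Fam189a1 one of -2.20 (SE 0.25, adjusted p = 0.0096, edgeR quasi-likelihood). Fam189a1 was at 1.93 and 1.51 CPM in pro-B controls and 0.400 and 0.218 in KO libraries. Its small pre-B levels were 14.6, 12.4 and 19.0 CPM in controls and 3.81, 2.92 and 5.17 in KO libraries, and no group overlapped its control. This pair was chosen after its values were seen.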
